A study of Mus musculus with 15 samples.

Results

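The 40 genes described here encode the ephrins, netrins and Slits, which guide growing axons and migrating cells, together with their receptors. They were chosen by gene symbol from the protein-coding genes of the mouse, and comprise 5 A-type ephrins, 3 B-type ephrins, 9 A-type and 5 B-type Eph receptors, 5 netrins and netrin-Gs, 6 netrin receptors (Dcc, Neo1, and Unc5a to Unc5d), 3 Slits, and 4 Robos. All 40 were among the 19475 genes with deposited values and all 40 passed the filter on low values. A symbol that also meets the rule, Ntn3, was not analysed here.

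The values come from bulk RNA-Seq of the brain of 15 mouse embryos at E16.5 on a C57BL/6J background, with 5 WT, 5 heterozygous (Tbr1 +/K228E) and 5 homozygous (Tbr1 K228E/K228E) embryos. K228E is a point mutation knocked into exon 1 of Tbr1, the gene for a T-box transcription factor of early-born excitatory neurons of the cerebral cortex. It replaces a lysine in the DNA-binding domain of TBR1, and the neomycin cassette of the targeting construct had been removed by crossing to protamine-Cre mice. Each genotype held 3 females and 2 males. The paper calls the tissue forebrain, whereas the labels call it brain or whole brain, and no source says whether embryos came from separate litters, so p-values measure only the spread between these embryos.

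Axon guidance cues are read by receptors on the growth cone. Ephrins are anchored in the membrane, A-type ephrins by a lipid and B-type ephrins by a transmembrane stretch, and act on Eph receptor tyrosine kinases of neighbouring cells, mostly by repulsion, while signals also run back into the cell that bears the ephrin. Secreted netrins attract axons through DCC and repel them where UNC5 receptors are present, and netrin-Gs are membrane-bound relatives that organize synapses. Slits are secreted repellents read by Robo receptors, which keep commissural and thalamocortical axons on course.

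The unit is the normalized read count, an estimated count per gene divided by a size factor per embryo. Its sum ranged from 30.5 to 31.8 M (M, megareads) per embryo, and the step of the lowest values put the depth near 26.3 to 38.0 M, so that counting error matters mainly for members with low values, such as Ntn5. Tbr1 was at 2097 to 4871 in WT, 4738 to 8543 in Tbr1 +/K228E and 7148 to 16015 in Tbr1 K228E/K228E embryos. Markers of brain regions and of other tissues also differed between the embryos. The summed value of 19 Hox genes (of 21 in the list), markers of hindbrain and spinal cord, ran from 7.86 to 3972 and was over 100 in 6 embryos (WT embryos 1, 2 and 4, Tbr1 +/K228E embryo 1, and Tbr1 K228E/K228E embryos 1 and 2), and the summed meningeal markers ran from 1702 to 45314. These sums overlapped between genotypes. Markers of forebrain excitatory neurons were high in every embryo, with a sum of 23901 to 56169 (10 of 10 listed). In bulk tissue, fewer cells of a type and less RNA per cell cannot be told apart.

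Levels of different genes were compared in WT embryos as the normalized read count per kb of exon length, taken over the union of the exons of each gene. Efnb3, a B-type ephrin, had the highest level at 1828 ± 143 (SD, n = 5). It was followed by Neo1, which encodes neogenin, a receptor for netrins and repulsive guidance molecules, at 1235 ± 87.3 (SD, n = 5). The ranges of these genes overlapped neither with each other nor with that of the next gene, Efnb2 (770.5). Behind them stood Ephb1 at 694, Epha4 at 685, Slit1 at 615, Ephb2 at 583, Efnb1 at 581, and Robo2 at 579, and each of these overlapped with its neighbour in the order. Ntng2 led the netrins and netrin-Gs with 510.1 per kb, above Ntn1 with 363, and Efna2 led the A-type ephrins with 454, above Efna3 with 382.

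Among the classical netrin receptors, Unc5a (434 per kb) and Unc5d (293) had higher levels in WT than Dcc (204), Unc5b (133), and Unc5c (90.2). Ephb6 (504) and Robo1 (504) stood close to the genes above, Epha5, Epha8, Epha3, and Epha7 lay between 302 and 315, and Efna5 (207), Ntng1 (158), Epha10 (139.7), Efna4 (129), Ephb4 (127), and Ephb3 (116) followed. Levels were under 100 per kb for Ntn4 (96.6), Robo3 (95.9), Slit2 (73.7), Slit3 (68.9), Efna1 (57.9), Epha6 (56.8), Robo4 (47.4), and Epha2 (21.4), as for Unc5c. Epha1 (5.83) and Ntn5 (4.56) were lowest, and Ntn5 was listed at 0 in the lowest WT embryo. Besides the first pair of steps, neighbouring ranges were apart only between Unc5d and Efna5 and between Epha2 and Epha1. The order depends on the length that is used. With the longest transcript in place of the exon union, the level of Robo2 was 1145 per kb and that of Slit2 was 188, while Efnb3 and Neo1 stayed in the leading places.

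**Figure D1:**
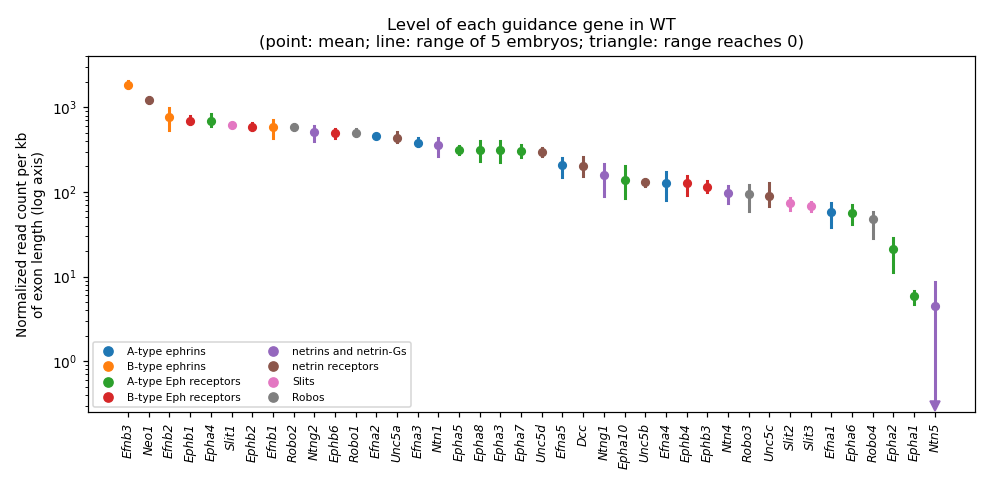
Normalized read count per kb of exon length (log axis) of the 40 guidance genes in the 5 WT embryos, ordered by mean. Points are means, lines span the lowest to the highest embryo, colours mark the class, and the triangle marks a range that reaches 0. Efnb3 (1828) and Neo1 (1235) stand above the other genes, and Epha1 (5.83) and Ntn5 (4.56) below them.

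The comparison of the 3 genotypes asks which guidance genes respond to 1 or 2 copies of the K228E allele. Unc5b, a repulsive netrin receptor, had lower values in the Tbr1 K228E/K228E embryos than in the WT embryos, and it was the only member of the 40 past the threshold (adjusted p under 0.05, limma with Benjamini–Hochberg correction over 16507 genes). The share of all tested genes past that threshold in this comparison was 0.127%, and 0.0666% passed with a lower value. Between Tbr1 +/K228E and WT embryos, no member passed, and no gene of the whole table did (0.0%). At an unadjusted limma p under 0.05 there were likewise 0 members, against 1.79% of all genes. Between Tbr1 K228E/K228E and Tbr1 +/K228E embryos no member passed either, where 0.0788% of all genes did. Tbr1 itself did not pass in Tbr1 +/K228E against WT embryos, at a log2 fold change of 0.85 (limma, adjusted p = 0.999). From the same embryos the paper, with DESeq2 and a corrected null distribution, called more genes against WT in both mutant genotypes. A lack of calls in the limma fit is therefore not a lack of change.

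Differences over the 40 genes were small and went in both directions. In Tbr1 K228E/K228E against WT embryos the log2 fold change was above 0 for 21 members and below 0 for 19, with a median of 0.0042 (all genes, -0.0023), and for 29 members it lay within 0.2 of 0. The values ran from -0.41 for Unc5b to 0.36 for Ntng1. In Tbr1 +/K228E against WT embryos the median was -0.040 (all genes, -0.0021), with 17 members above 0 and 23 below, from -0.39 for Robo3 to 0.27 for Epha2. These comparisons share the WT embryos. At an unadjusted limma p under 0.05 there were 3 members in Tbr1 K228E/K228E against WT embryos (Unc5b, Unc5a and Epha3), or 7.5% against 3.23% of all genes, and 4 of the 40 in Tbr1 K228E/K228E against Tbr1 +/K228E embryos (Unc5b, Epha7, Slit2 and Ntng1), against 3.3%. Apart from Unc5b, the adjusted p of the other 39 members was at least 0.996 in each comparison.

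**Figure D2:**
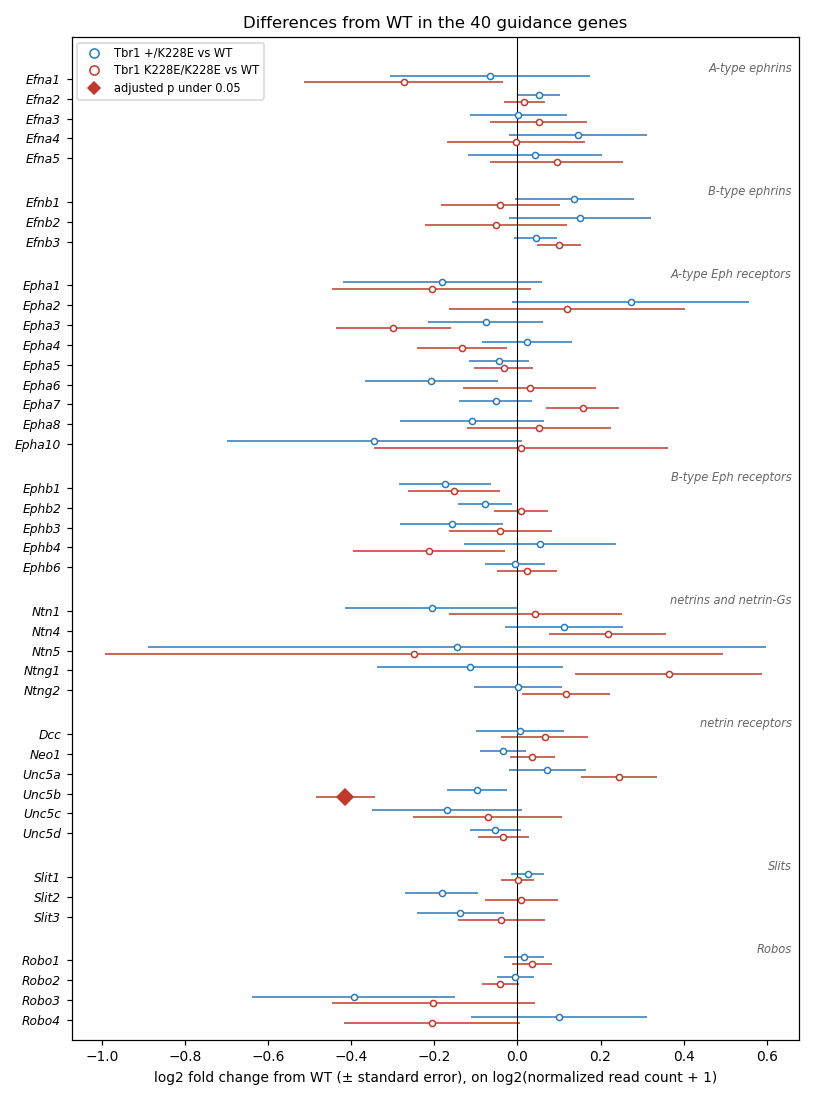
Log2 fold change from WT (on log2 of the normalized read count + 1) of the 40 genes by class, in Tbr1 +/K228E (blue) and Tbr1 K228E/K228E (red) embryos. Points are limma estimates from 5 embryos a genotype, bars are standard errors, and the filled diamond marks the sole value past the threshold, that of Unc5b at -0.41.

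Unc5b (ENSMUSG00000020099) lies on the minus strand of chromosome 10 (chr10:60762593-60831581, GRCm38). UNC5B repels axons and endothelial tip cells in response to netrin-1 and is also a receptor of FLRT proteins. Its normalized read count was 838, 861, 734, 837 and 888 in the WT embryos, 779, 783, 774, 762 and 779 in the Tbr1 +/K228E embryos, and 656, 625, 543, 577 and 727 in the Tbr1 K228E/K228E embryos. All 5 Tbr1 K228E/K228E embryos lay below all 5 WT and all 5 Tbr1 +/K228E embryos, and the Tbr1 +/K228E embryos lay within the range of the WT embryos. WT embryos averaged 832 ± 58.4, Tbr1 +/K228E embryos 775 ± 8.18, and Tbr1 K228E/K228E embryos 626 ± 71.3 (mean ± SD of 5 embryos each). The log2 fold change in Tbr1 K228E/K228E against WT embryos was -0.41 (standard error 0.072), a level lower by 25.0% (limma, adjusted p = 0.0318). The two-sided exact permutation test of Unc5b alone gave 0.00794, the smallest p that 5 against 5 embryos allow, unadjusted in a family of 120 such tests.

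Against Tbr1 +/K228E embryos the log2 fold change of Unc5b was -0.32 (standard error 0.072) (limma, adjusted p = 0.291). The exact permutation p was again 0.00794. Between Tbr1 +/K228E and WT embryos the log2 fold change was -0.10 (standard error 0.072) and did not pass (limma, adjusted p = 0.999). Its exact permutation p was 0.0476, unadjusted, and Unc5b was the 1 member of the 40 under 0.05 in that test and comparison. Of all genes tested, 0.594% had no overlap between Tbr1 K228E/K228E and WT embryos and 0.878% had none between Tbr1 K228E/K228E and Tbr1 +/K228E embryos. Unc5b was the 1 member in both cases, and between Tbr1 +/K228E and WT embryos 0 members had none, against 0.26% of all genes. The log2 fold change in Tbr1 K228E/K228E against WT embryos was -0.42 in females and -0.41 in males, a difference of 0.0032 (standard error 0.15, adjusted p = 0.998, limma interaction of sex and genotype).

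The size of this difference changed little between fits, whereas its place relative to the threshold did. Omission of single embryos, in 15 fits, gave a log2 fold change of Unc5b between -0.47 and -0.37 and an adjusted p between 0.0106 and 0.117 (limma). The call held without WT embryo 3, Tbr1 +/K228E embryo 2 or 4, or Tbr1 K228E/K228E embryo 5, and was lost without any 1 of the other 11 embryos. It was also lost with upper-quartile scaling (adjusted p = 0.0561, limma), in a fit of the 2 compared genotypes alone (adjusted p = 0.271, limma), and without the 6 embryos whose Hox sum was over 100 (log2 fold change -0.40, adjusted p = 1.0, limma), which left only WT embryos 3 and 5 in that group.

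Unc5b was also set against markers of meninges and of endothelium, a cell type in which it is known to be expressed. Neither r nor rho passed over the 15 embryos for either score. With the meningeal score, Unc5b correlated at r = 0.63, rho = 0.51 over 15 embryos (adjusted p = 0.0502 for r and 0.154 for rho, permutation), at r = 0.66 without WT embryo 3 and Tbr1 K228E/K228E embryo 4, the farthest in that score, and at r = 0.88 within genotypes. With the endothelial score the values were r = 0.61, rho = 0.53 (adjusted p = 0.0629 for r and 0.136 for rho, permutation), r = 0.58 without the same 2 embryos, and r = 0.89 within genotypes. The permutations shuffled embryos across genotypes, and the r within genotypes was not tested. The summed endothelial markers (8 of 8 listed) ran from 5359 to 9752 in WT, 6491 to 9601 in Tbr1 +/K228E, and 5407 to 10630.1 in Tbr1 K228E/K228E embryos, and the summed meningeal markers (12 of 12 listed) from 1702 to 45314, 7748 to 29040.0, and 1785 to 34366. With the meningeal score as a covariate, the log2 fold change of Unc5b in Tbr1 K228E/K228E against WT embryos was -0.37 (standard error 0.048, adjusted p = 0.00423, limma). This covariate was chosen after the data had been seen.

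**Figure D3:**
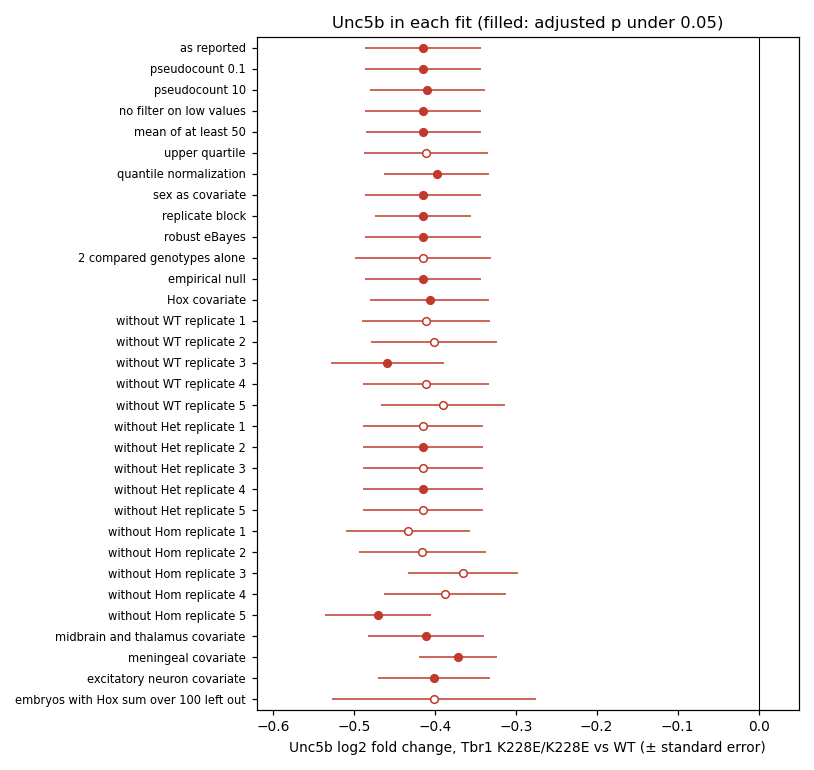
Log2 fold change of Unc5b in Tbr1 K228E/K228E against WT embryos (± standard error) in each limma fit, by row. Filled points have an adjusted p under 0.05. Estimates lie between -0.47 and -0.37, and both filled and open points occur.

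Because TBR1 is a T-box factor, the letters of a T-box half-site (GGTGTGA, or its reverse complement TCACACC) were searched in the promoter window of each member, from 250 bases before to 50 bases after each RefSeq start site (GRCm38.p6). Windows were found for 35 of the 40 members, and those of Ntn1, Dcc, Efnb3, Slit1, and Unc5d were not found in the table. Of all 32851 promoter windows, 3.98% held either form. Of the 40 windows of the members, 1 (2.5%) did. It was that of Efna1, the 1 gene of 35 (2.86%) with such a window, where TCACACC began 14 bases before the start site. The 250 bases before the start site of Unc5b, the gene that was called, are shown because they hold neither form, which says only that these letters are not in this window, beside the 30 bases around the match at Efna1, in which capitals mark the match. The first lies at chr10:60831582-60831831 and the second at chr3:89280947-89280976, both on the minus strand and written 5′ to 3′.
Unc5b: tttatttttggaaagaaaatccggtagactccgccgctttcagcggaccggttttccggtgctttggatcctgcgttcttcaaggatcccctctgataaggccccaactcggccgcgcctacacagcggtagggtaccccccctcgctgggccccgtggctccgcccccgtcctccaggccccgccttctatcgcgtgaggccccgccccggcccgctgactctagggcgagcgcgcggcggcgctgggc
Efna1: acccccgcccaTCACACCctgcaacgcaca
The stretch of Unc5b has a GC content of 66.8%. Efna1 itself, a ligand of EphA receptors on endothelium and neurons, had a log2 fold change of -0.27 (standard error 0.24) in Tbr1 K228E/K228E against WT embryos (exact permutation p = 0.357), with values of 71.5 to 135 in WT and 53.6 to 136 in Tbr1 K228E/K228E embryos.

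None of the other receptors of the UNC5 family was called. Unc5a, a neuronal receptor of the same repulsive type, was at 1616, 1647, 1879.9, 1805 and 2104 in the WT embryos, 1916, 1771, 1966, 1895 and 1928 in the Tbr1 +/K228E embryos, and 1931, 1937, 2779, 2097 and 2032 in the Tbr1 K228E/K228E embryos. Tbr1 K228E/K228E embryo 3 stood far above all others, and the groups overlapped. Its log2 fold change against WT embryos was 0.24 (standard error 0.092), which did not pass the correction over all genes (exact permutation p = 0.0714), and leaving out embryos one at a time gave 0.15 to 0.30. The lowest was that without Tbr1 K228E/K228E embryo 3. Against Tbr1 +/K228E embryos the log2 fold change was 0.17 (standard error 0.092) (exact permutation p = 0.0397). Unc5c ranged over 1293 to 2467 in WT and 1274 to 1839 in Tbr1 K228E/K228E embryos, with a log2 fold change of -0.072 (standard error 0.18). For Unc5d, which marks migrating and upper-layer cortical neurons, the ranges were 2463 to 3089 and 2472 to 2738, with a log2 fold change of -0.034 (standard error 0.061).

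The attractive netrin receptors were not called either. Dcc averaged 2691 ± 528 in WT embryos, 2665 ± 150.4 in heterozygous embryos, and 2778 ± 205 in homozygous embryos (mean ± SD, n = 5), with a log2 fold change of 0.065 (standard error 0.11) in the homozygous embryos. Neo1, the most abundant netrin receptor per kb, had values of 9889, 10148, 10744, 11366 and 11664 in the WT embryos, 10024, 10195, 10549, 11525 and 10198 in the Tbr1 +/K228E embryos, and 10523, 10373, 11908, 11159 and 11134 in the Tbr1 K228E/K228E embryos. These groups overlapped throughout, and the log2 fold change against WT was -0.035 (standard error 0.054) in Tbr1 +/K228E and 0.035 (standard error 0.054) in Tbr1 K228E/K228E embryos (exact permutation p = 0.603 and 0.532). The summed value of the 6 netrin receptors averaged 20522 ± 978 in WT and 20821 ± 1173 in homozygous embryos (mean ± SD, n = 5).

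**Figure D4:**
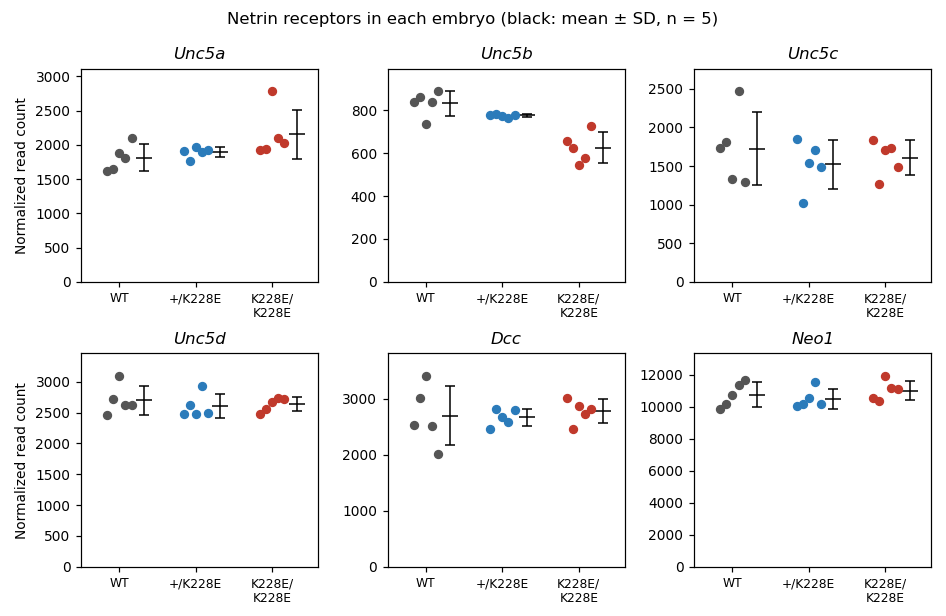
Normalized read count of the 6 netrin receptors in each embryo (points) with the mean ± SD of 5 embryos (black), by genotype, each axis starting at 0. The 5 Tbr1 K228E/K228E embryos lie below all others for Unc5b (543 to 727 against 734 to 888 in WT), whereas the genotypes overlap for the other 5 receptors.

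Among the netrins and netrin-Gs, no gene passed in any comparison. Ntn1, the secreted netrin of the floor plate and ventral forebrain, averaged 2280.3 ± 529 in WT embryos, 1979 ± 473 in heterozygous embryos, and 2356 ± 557 in homozygous embryos (mean ± SD, n = 5), and its log2 fold change in the last was 0.043 (standard error 0.21). For Ntn4, a laminin-binding netrin of basement membranes, it was 0.22 (standard error 0.14). Ntn5 had a mean of 8.01 over all embryos, and its log2 fold change in Tbr1 K228E/K228E against WT embryos was -0.25 (standard error 0.74). Ntng1, which is strong in thalamic neurons and binds NGL-1 on their targets, had values of 1446, 746, 1190.4, 1356 and 1775 in the WT embryos, 1312, 736, 1202, 1231 and 1457 in the Tbr1 +/K228E embryos, and 1269, 2215, 1855, 1538 and 1362 in the Tbr1 K228E/K228E embryos. Its largest value belonged to Tbr1 K228E/K228E embryo 2 and its smallest to Tbr1 +/K228E embryo 2, and the groups overlapped. Fold changes of Ntng1 on the log2 scale were 0.36 (standard error 0.22) against WT (exact permutation p = 0.198) and 0.48 (standard error 0.22) against Tbr1 +/K228E embryos (exact permutation p = 0.0556). Ntng2, the paralog found in cortical and other forebrain neurons, was at 1877, 1951, 2374, 1609.6 and 2364 in the WT embryos, 1751, 2107, 1859.8, 2152 and 2255 in the Tbr1 +/K228E embryos, and 1920.0, 2499.8, 2297, 2103 and 2145 in the Tbr1 K228E/K228E embryos. Its groups overlapped too, with log2 fold changes of 0.0018 (standard error 0.11) in Tbr1 +/K228E and 0.12 (standard error 0.11) in Tbr1 K228E/K228E against WT embryos (exact permutation p = 1 and 0.381).

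Of the 9 A-type Eph receptors, 5 had a log2 fold change above 0 and 4 below 0 in Tbr1 K228E/K228E against WT embryos, with a median of 0.0083, and none passed. Epha3 had values of 2493, 2962, 3464, 1969 and 2718 in the WT embryos, 2004, 2815, 2601, 2952 and 2420.4 in the Tbr1 +/K228E embryos, and 2249.6, 1899, 2687, 2053 and 2062 in the Tbr1 K228E/K228E embryos. Tbr1 K228E/K228E embryo 2 had the lowest value and WT embryo 3 the highest, and the groups overlapped. Its log2 fold change against WT was -0.30 (standard error 0.14) (exact permutation p = 0.111), and against Tbr1 +/K228E embryos it was -0.22 (standard error 0.14) (exact permutation p = 0.127). Epha3 also followed the score of forebrain excitatory neuron markers, at r = 0.74, rho = 0.78 over 15 embryos (adjusted p = 0.00942 for r and 0.00659 for rho, permutation), r = 0.63 without WT embryo 4 and Tbr1 K228E/K228E embryo 2, and r = 0.93 within genotypes. With that score as a covariate, chosen after the data had been seen, the log2 fold change of Epha3 against WT was -0.37 (standard error 0.056), with an adjusted p of 0.00625 (limma), whereas without it the adjusted p was 1.00. With the midbrain and thalamus score it was -0.32 and with the Hox score -0.38, and neither passed (adjusted p = 1.00 and 0.474, limma). The summed excitatory neuron markers ran from 23901 to 54158 in WT and 28011 to 56169 in Tbr1 K228E/K228E embryos.

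Epha7, a receptor that patterns corticothalamic projections, had values of 2730.5, 2554, 3004, 3055 and 3565 in the WT embryos, 2758, 2750.0, 2795, 3172 and 2832 in the Tbr1 +/K228E embryos, and 2889.6, 3283, 3957, 3172 and 3306 in the Tbr1 K228E/K228E embryos. Its highest value was in Tbr1 K228E/K228E embryo 3, and Tbr1 +/K228E embryo 4 stood apart from the other heterozygous embryos. Its log2 fold change was 0.21 (standard error 0.088) against Tbr1 +/K228E (exact permutation p = 0.0238) and 0.16 (standard error 0.088) against WT embryos (exact permutation p = 0.198). Epha4, the most abundant A-type receptor per kb and one that also binds B-type ephrins, had values of 5267, 5678, 6739.9, 4832 and 5057 in the WT embryos, 5328, 6203, 5870.1, 5330.3 and 5152 in the Tbr1 +/K228E embryos, and 5083, 3839.7, 6124, 4899 and 5291 in the Tbr1 K228E/K228E embryos. The groups overlapped, with a log2 fold change of -0.13 (standard error 0.11) in Tbr1 K228E/K228E against WT embryos (exact permutation p = 0.397). Like Epha3, it followed the excitatory neuron score (r = 0.80, rho = 0.84 over 15 embryos, adjusted p = 0.00518 for r and 0.00257 for rho, permutation), at r = 0.81 without WT embryo 4 and Tbr1 K228E/K228E embryo 2. For the other 6 receptors the log2 fold change against WT in Tbr1 K228E/K228E embryos was -0.21 (standard error 0.24) for Epha1, 0.12 (standard error 0.28) for Epha2, -0.033 (standard error 0.071) for Epha5, 0.029 (standard error 0.16) for Epha6, 0.053 (standard error 0.17) for Epha8, and 0.0083 (standard error 0.35) for Epha10, and none exceeded its standard error.

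Among the 5 B-type Eph receptors, 4 had a log2 fold change below 0 in Tbr1 +/K228E against WT embryos, against 3 in Tbr1 K228E/K228E embryos, and none passed. Ephb1, which steers retinal and cortical axons, had values of 4882, 5008, 4521, 5459.6 and 4442 in the WT embryos, 4446, 3399, 4273, 4583 and 4959.8 in the Tbr1 +/K228E embryos, and 4254, 5512, 3519, 4624 and 4127 in the Tbr1 K228E/K228E embryos. Tbr1 +/K228E embryo 2 was lowest and Tbr1 K228E/K228E embryo 2 highest, and the groups overlapped. The log2 fold change against WT was -0.17 (standard error 0.11) in Tbr1 +/K228E (exact permutation p = 0.143) and -0.15 (standard error 0.11) in Tbr1 K228E/K228E embryos (exact permutation p = 0.238). In Tbr1 K228E/K228E embryos it was 0.0083 (standard error 0.065) for Ephb2, -0.041 (standard error 0.12) for Ephb3, and 0.023 (standard error 0.072) for Ephb6, whose kinase domain is inactive. Ephb4, the receptor of venous endothelium, averaged 587 ± 122 in WT and 512 ± 145 in homozygous embryos (mean ± SD, n = 5), a log2 fold change of -0.21 (standard error 0.18).

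Ephrins, the ligands of these receptors, showed no call either. Efnb3, a midline ligand and the most abundant member per kb, had values of 5496, 5356, 5709.6, 6055 and 6480.1 in the WT embryos, 5718, 5719, 6116, 6422 and 5971 in the Tbr1 +/K228E embryos, and 5764, 6469, 6323, 6429 and 6167 in the Tbr1 K228E/K228E embryos. The lowest Tbr1 K228E/K228E value was above that of 3 of the 5 WT embryos, and the groups overlapped. Its log2 fold change against WT was 0.10 (standard error 0.053) in Tbr1 K228E/K228E (exact permutation p = 0.119) and 0.044 (standard error 0.053) in Tbr1 +/K228E embryos (exact permutation p = 0.476). Efnb1, a ligand of neural progenitors, had log2 fold changes of 0.14 (standard error 0.14) and -0.041 (standard error 0.14) in heterozygous and homozygous embryos, and Efnb2, a ligand of arterial endothelium and of neurons, had 0.15 (standard error 0.17) and -0.052 (standard error 0.17). Efna2, the leading A-type ephrin, varied little, with 953, 991, 939.9, 1005 and 947 in the WT embryos, 976, 933, 965, 1063 and 1082 in the Tbr1 +/K228E embryos, and 943, 1035, 926, 989 and 1001 in the Tbr1 K228E/K228E embryos. All of its embryos lay between 926 and 1082, and the log2 fold change against WT was 0.052 (standard error 0.050) in Tbr1 +/K228E and 0.016 (standard error 0.050) in Tbr1 K228E/K228E embryos (exact permutation p = 0.317 and 0.667). For the remaining A-type ephrins the log2 fold change in Tbr1 K228E/K228E embryos was 0.051 (standard error 0.12) for Efna3, -0.0042 (standard error 0.17) for Efna4, and 0.095 (standard error 0.16) for Efna5, a ligand that maps thalamic and retinal axons.

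For the Slits, the repellent ligands of the Robos, Slit1 and Slit2 differed in how much they varied. Slit1 had the most even values of the 40 genes, with 3525, 3487, 3767, 3664 and 3777 in the WT embryos, 3793, 3566, 3669, 3695 and 3806 in the Tbr1 +/K228E embryos, and 3489, 3541, 3648, 3999.5 and 3557 in the Tbr1 K228E/K228E embryos. Its groups overlapped, and the log2 fold change against WT was 0.025 (standard error 0.040) in Tbr1 +/K228E and 0.00020 (standard error 0.040) in Tbr1 K228E/K228E embryos (exact permutation p = 0.389 and 0.984). Slit2 was at 1835, 1571, 1776, 2177 and 2017 in the WT embryos, 1803, 1495, 1753, 1438 and 1759 in the Tbr1 +/K228E embryos, and 1819, 2059, 1674, 1917 and 1935 in the Tbr1 K228E/K228E embryos. The lowest values were those of Tbr1 +/K228E embryos 4 and 2, and the groups overlapped. Its log2 fold change was -0.18 (standard error 0.088) in Tbr1 +/K228E against WT (exact permutation p = 0.103), 0.19 (standard error 0.088) in Tbr1 K228E/K228E against Tbr1 +/K228E (exact permutation p = 0.0556), and 0.0094 (standard error 0.088) in Tbr1 K228E/K228E against WT embryos (exact permutation p = 0.913). Slit3, which is also expressed outside neurons, had -0.14 (standard error 0.10) and -0.040 (standard error 0.10) in heterozygous and homozygous embryos.

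The main neuronal receptors of Slits, Robo1 and Robo2, varied little across the embryos, with coefficients of variation of 4.83% and 4.62%. Robo2 had values of 9713, 9956, 10713, 9605 and 9200.4 in the WT embryos, 10305, 8970.3, 10080.3, 10070.3 and 9571 in the Tbr1 +/K228E embryos, and 9390.2, 9557, 9897, 9523 and 9373 in the Tbr1 K228E/K228E embryos. All groups overlapped, with log2 fold changes against WT of -0.0056 (standard error 0.044) in Tbr1 +/K228E and -0.042 (standard error 0.044) in Tbr1 K228E/K228E embryos (exact permutation p = 0.921 and 0.341). For Robo1 it was 0.016 (standard error 0.047) and 0.035 (standard error 0.047). Robo3, a divergent receptor of commissural neurons, varied most among the Robos of neurons, with 744, 647, 659.9, 409.5 and 822 in the WT embryos, 716, 393, 257, 538 and 698 in the Tbr1 +/K228E embryos, and 646, 526, 585, 531 and 502 in the Tbr1 K228E/K228E embryos. WT embryo 5 was highest and Tbr1 +/K228E embryo 3 lowest, and the groups overlapped. Against WT its log2 fold change was -0.39 (standard error 0.24) in Tbr1 +/K228E (exact permutation p = 0.27) and -0.20 (standard error 0.24) in Tbr1 K228E/K228E embryos (exact permutation p = 0.302). Robo4, the Robo of endothelial cells, ranged over 151 to 306 in WT and 142 to 284 in Tbr1 K228E/K228E embryos.

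Genes that act beside these ligands and receptors were taken from 3 lists, with 20 genes of Eph and ephrin signalling, 25 of netrin, DCC and UNC5 signalling, and 20 of Slit and Robo signalling, or 60 distinct genes. All 60 were tested and none passed the threshold in any comparison of the limma fit, in either direction. The medians of the lists in Tbr1 K228E/K228E against WT embryos were -0.017, -0.0059, and 0.0024, and 1 gene of each list had an unadjusted limma p under 0.05, against 3.23% of all genes tested. The numbers were 0, 2, and 1 in Tbr1 K228E/K228E against Tbr1 +/K228E embryos, against 3.3% of all genes, and 0 in each list in Tbr1 +/K228E against WT embryos, against 1.79%. Against WT, the gene of the netrin list was Flrt3, a membrane protein that binds UNC5 receptors, Unc5b among them. It was at 1077 to 1186 in WT, 958 to 1183 in Tbr1 +/K228E, and 1235 to 1531 in Tbr1 K228E/K228E embryos, so that all homozygous embryos lay above all others. A lack of overlap was found for 0.594% of all genes against WT and 0.878% against Tbr1 +/K228E embryos. The log2 fold change of Flrt3 was 0.23 (standard error 0.064) against WT and 0.31 against Tbr1 +/K228E embryos, with adjusted p = 0.701 and 0.143 (limma with Benjamini–Hochberg correction). The paper, which tested the same embryos with DESeq2 and a corrected null distribution, listed Flrt3 among its upregulated genes in homozygous embryos.

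In the Slit list the gene was Nell2, which encodes a secreted ligand of ROBO3. It averaged 9733 ± 359.9 in WT and 10841 ± 740.2 in homozygous embryos (mean ± SD, n = 5). The log2 fold change was 0.15 (adjusted p = 0.709, limma). In the Eph list it was Grip1, an adaptor of B-type ephrins, with means of 1890.0 ± 77.2 in WT and 1770.1 ± 97.3 in homozygous embryos (mean ± SD, n = 5), a log2 fold change of -0.10. In the other comparisons the smallest p of a list belonged to Flrt3, Nell2, Grip1, Tiam1 (0.079, Tbr1 K228E/K228E against Tbr1 +/K228E), or Srgap2 (-0.047, Tbr1 +/K228E against WT), given as log2 fold changes.

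Some members varied widely between embryos of the same genotype. Over the 15 embryos the coefficient of variation was 70.3% for Ntn5, 36.5% for Epha10, 28.7% for Epha2, 27.7% for Ntng1, and 25.9% for Robo3, and it was 13.8% for Unc5b and 3.93% for Slit1, the lowest of the 40. Epha10 was at 901, 815, 607, 1467 and 1241 in WT, 1017, 292, 754, 1009 and 1090.0 in Tbr1 +/K228E, and 817, 1681, 599.6, 1129 and 899 in Tbr1 K228E/K228E embryos, a 5.77-fold span from Tbr1 +/K228E embryo 2 to Tbr1 K228E/K228E embryo 2. Each member was set against 5 marker scores, each the mean log2 value of a list, over the 15 embryos, and of these 200 relations, chosen after the data had been seen, 40 had an adjusted permutation p under 0.05 for both Pearson's r and Spearman's rho. The 100000 permutations shuffled embryos across genotypes. Genes of one embryo share a library and a dissection, and the scores are themselves related, so the 200 relations are not independent. The same relations were not computed for the other genes of the table. Whether the members followed these scores more often than other genes was not tested.

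Members are listed below by the score they followed, and a gene can appear under several scores. Efnb2 and Efnb1 ran against the midbrain and thalamus score and with that of excitatory neurons. For Epha10, Epha8, Ephb3, and Ntn1 it was the reverse, so these are not separate groups. Robo4, Ephb4, Ntn5, and Efna1 rose with the endothelial score, at r = 0.95, 0.94, 0.89, and 0.83 (rho = 0.93, 0.94, 0.86, and 0.84). Without WT embryo 3 and Tbr1 K228E/K228E embryo 4, the farthest in that score, r was 0.91, 0.93, 0.85, and 0.90. The largest adjusted permutation p of these 4 was 0.00233 for r and 0.00257 for rho. The same genes followed the meningeal score, with r from 0.79 to 0.94. For the meningeal score 5 members passed, 4 with r above 0 and 1 below. Robo4 and Ephb4 are known as endothelial genes.

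Some members followed the score of midbrain and thalamus. Epha10 (r = 0.91, rho = 0.83), Ephb2 (r = 0.87, rho = 0.73), Ephb1 (r = 0.84, rho = 0.83), and Epha8 (r = 0.78, rho = 0.70) were higher where these markers were higher, as were Ephb3, Ntn1, and Efna5, with r of 0.73, 0.65, and 0.63. EphB receptors and EphA8 are known from the superior colliculus, but Ephb4 and Ephb6 did not pass for this score. Without Tbr1 +/K228E embryo 2 and Tbr1 K228E/K228E embryo 3, r was 0.84 for Epha10, 0.61 for Ephb2, 0.74 for Ephb1, and 0.69 for Epha8. Efnb2 (r = -0.77) and Efnb1 (r = -0.64) ran the other way, and adjusted permutation p-values of these 9 genes were at most 0.0471 for r and 0.0246 for rho.

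The members that followed the excitatory neurons of the forebrain were Efnb2 (r = 0.93, rho = 0.92), Efna4 (r = 0.90, rho = 0.84), Efnb1 (r = 0.83, rho = 0.79), Epha4, Epha3, and Robo1 (r = 0.67, rho = 0.65). Without WT embryo 4 and Tbr1 K228E/K228E embryo 2, r was 0.86 for Efnb2, 0.77 for Efna4, 0.63 for Efnb1, and 0.60 for Robo1. Ephb3, Epha10, Epha8, Ntn1, and Slit2 ran against that score, with r of -0.86, -0.80, -0.78, -0.74, and -0.72. Efnb1 was most closely tied to radial glia and dividing cells (r = 0.94, rho = 0.91), and stayed so without the 2 farthest embryos (r = 0.89). Ntn4 (r = 0.73) and Dcc (r = 0.67) also followed that score, whereas Efnb3 ran against it (r = -0.76). In all, 11 members passed for that score, 6 with r above 0 and 5 below, and not all are named here. None of these genes was called between genotypes in the fit without covariates. With the Hox, midbrain and thalamus, meningeal, or excitatory neuron score as a covariate, Epha3 was the only one of them called, with the last of these scores, in Tbr1 K228E/K228E against WT embryos.

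**Figure D5:**
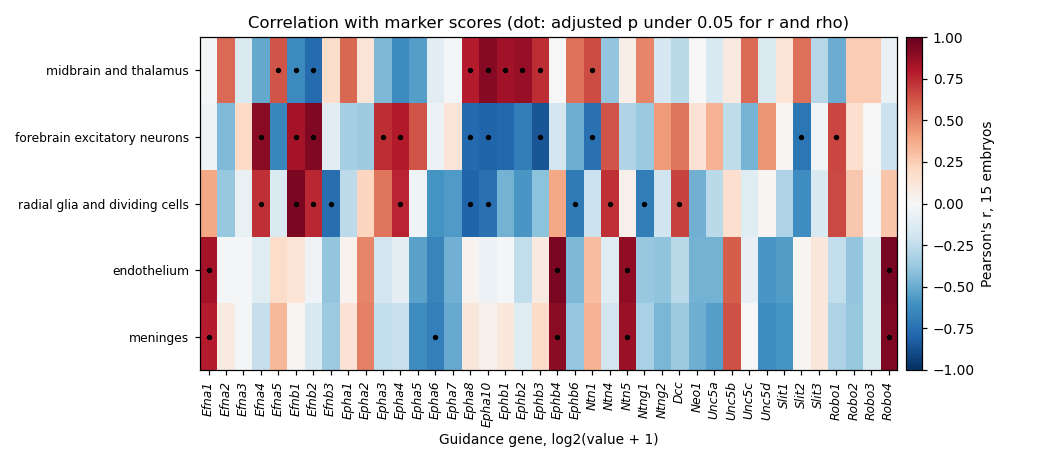
Pearson's r over 15 embryos between each of the 40 genes (columns, by class) and 5 marker scores (rows), from blue (-1) to red (1). Dots mark the 40 relations with an adjusted p under 0.05 for r and rho. Robo4 (r = 0.95) and Ephb4 (r = 0.94) stand out in the endothelial row and Epha10 (r = 0.91) in that of midbrain and thalamus.

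Effects of genotype were also compared between females and males. In no member did the log2 fold change differ between the sexes past the threshold, nor did it in any gene of the table. The smallest adjusted p of a member was 0.734 in Tbr1 +/K228E and 0.752 in Tbr1 K228E/K228E against WT embryos (limma interaction of sex and genotype). At an unadjusted p under 0.05 in that test there were 3 and 4 of the 40 members, beside 1106 and 1066 of the 16507 genes tested. In Tbr1 +/K228E against WT embryos the 3 members were Dcc, with a log2 fold change of -0.16 in females and 0.26 in males, Robo1, with -0.058 and 0.13, and Slit2, with -0.039 and -0.40. The 4 members in Tbr1 K228E/K228E against WT embryos had log2 fold changes in females and males of -0.049 and 0.16 for Robo1, -0.25 and 0.37 for Efna4, -0.25 and 0.28 for Efnb1, and -0.093 and 0.30 for Dcc. Each genotype held 2 males.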

How the data were processed

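RNA-Seq values of 15 embryo brains (5 per genotype, from the labels) were used as deposited. The authors sequenced TruSeq libraries as 101-bp pairs, estimated transcript abundance with Salmon 0.11.2 on GRCm38, collapsed transcripts to genes with tximport, and divided by DESeq2 1.22.2 size factors (R 3.5.3). The deposited values are thus a normalized signal, not whole reads, and no count model was fitted. Symbols were matched through GENCODE M21 (19469 of 19475 identifiers).

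Genotypes were compared with limma 3.58.1 (R 4.3.3, lmFit, eBayes with a trend) on log2(value + 1) in one fit of all embryos, for 16507 genes with a mean of at least 5, with Benjamini–Hochberg correction and a threshold of 0.05. A fold change on this scale understates that of low genes. Single members were also tested alone, with exact two-sided permutation of 5 against 5 embryos. Correlations used 100000 permutations (scipy 1.17.1). Members and lists were chosen with earlier results of these data known. Values by embryo are given for members past the threshold, the 4 with the smallest p in each comparison, and the most abundant per kb of each class. Epha10, Efna1, and the members named by their correlation were added once their values were known. The fit was repeated with other pseudocounts (0.1 and 10), without the filter, with a minimum mean of 50, and with upper-quartile or quantile scaling, sex, Hox or marker covariates, a replicate block, robust eBayes, 2 genotypes alone, an empirical null, and leaving out embryos.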

Additional observations from a re-analysis of the deposited data

Results flagged for a closer look

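In 7 of the 120 groups of 5 embryos (40 members in 3 genotypes, 5.83%), 1 embryo stood apart from the other 4, with a gap to its neighbour over 0.71 of the range of the group. Chance gives such a gap in about 1 in 20 groups, so the number is close to what chance gives. Unc5a, the UNC5 receptor with the highest level, was 2779 in Tbr1 K228E/K228E embryo 3, above the 1931 to 2097 of the other 4 embryos of that genotype. Epha5, an A-type Eph receptor, was 5952 in Tbr1 K228E/K228E embryo 3, above the 4861 to 5162 of the other 4 embryos of that genotype. Epha6, another receptor of that type, was 283 in Tbr1 +/K228E embryo 2, above the 245 to 254 of the other 4 embryos of that genotype. Ephb2, a B-type Eph receptor, was 5887 in Tbr1 +/K228E embryo 2, below the 7055 to 7460.4 of the other 4 embryos of that genotype. Epha7, an A-type receptor, was 3172 in Tbr1 +/K228E embryo 4, above the 2750.0 to 2832 of the other 4 embryos of that genotype. Robo4, the endothelial Robo, was 186 in Tbr1 +/K228E embryo 4, below the 269.8 to 304 of the other 4 embryos of that genotype. Robo1, a neuronal Slit receptor, was 8098 in Tbr1 K228E/K228E embryo 2, below the 8565 to 8666 of the other 4 embryos of that genotype. Of these embryos, Tbr1 +/K228E embryo 2 had the lowest sum of midbrain markers (88.4) and Tbr1 K228E/K228E embryo 2 the highest (5536). Their part in these values was not tested.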

How the results depend on the processing

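The number of members called in Tbr1 K228E/K228E against WT embryos was 1 (Unc5b) as reported. It was 0 with upper-quartile scaling, 0 in a fit of the 2 genotypes alone, 0 without the 6 embryos whose Hox sum was over 100, and 2 (Unc5b and Epha3) with the excitatory neuron covariate. It was 0 to 1 when embryos were left out in turn. The other alternatives left it at 1, and the number was 0 in the other comparisons under every alternative run. The marker covariates and the omission of 6 embryos were chosen after the data had been seen. With a replicate block, Unc5b had an adjusted p of 0.029 (limma) and the number called stayed at 1 in Tbr1 K228E/K228E against WT, 0 in Tbr1 +/K228E against WT, and 0 in Tbr1 K228E/K228E against Tbr1 +/K228E embryos. Deviations of same-numbered embryos correlated at r = -0.23 to 0.51. In most cases an embryo correlated best with another number than its own, so the numbers were not taken as pairs.

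Changes of sign, also when embryos were left out, were followed only in the 15 members picked by rule for values by embryo. The other members were not checked for this. Log2 fold changes that changed sign belonged to members that were not called, and the cause was not tested. In Tbr1 +/K228E against WT embryos, with the Hox covariate, Epha4 was -0.041, Ntng2 -0.093, and Robo2 0.00017. With the midbrain and thalamus covariate, Epha4 was -0.051, Ntng1 0.0019, Ntng2 -0.021, and Robo2 0.0061. With the excitatory neuron covariate, Epha4 was -0.062 and Ntng2 -0.039, and with the meningeal covariate Robo2 was 0.0040. Without the 6 embryos, Efnb3 was -0.0073, Epha4 -0.054, Ntng2 -0.18, Slit1 -0.034, and Unc5a -0.074. In Tbr1 K228E/K228E against WT embryos, Slit1 was -0.0099 with quantile scaling, -0.0049 with the Hox covariate, -0.018 with the meningeal covariate, and -0.016 without the 6 embryos, where Ntng2 was -0.12 and Slit2 -0.043. In Tbr1 K228E/K228E against Tbr1 +/K228E embryos, Ephb1 was -0.0019, -0.057, and -0.0055 with the Hox, midbrain and thalamus, and excitatory neuron covariates, and -0.069 without the 6 embryos, where Slit1 was 0.018. Leaving out embryos gave ranges that include 0 in Tbr1 +/K228E against WT for Epha3 (-0.19 to 0.016), Epha4 (-0.022 to 0.10), Epha7 (-0.11 to 0.015), Ntng1 (-0.30 to 0.049), Ntng2 (-0.079 to 0.061), and Robo2 (-0.029 to 0.026), in Tbr1 K228E/K228E against WT for Efna2 (-0.0041 to 0.036), Slit1 (-0.034 to 0.016), and Slit2 (-0.052 to 0.065), and in Tbr1 K228E/K228E against Tbr1 +/K228E for Ephb1 (-0.064 to 0.10) and Robo3 (-0.038 to 0.33). Ntn5 and Epha1 had the lowest values of the members, and so the least depth behind them.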
